A study of Rattus norvegicus with 6 samples.

Results

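Proteasome genes were examined in cultured rat oligodendrocytes given cholesterol. The genes were taken by name, as every protein-coding entry whose symbol starts with Psma, Psmb, Psmc or Psmd followed by a digit. This took 35 of the 20422 entries in the deposited table, and all 35 passed the filter on low counts that left 16182 genes for testing. They are the 7 alpha and 7 constitutive beta subunits of the 20S core, the immunoproteasome subunits Psmb8 and Psmb9, the 6 ATPases and 11 non-ATPase subunits of the 19S regulatory particle, and the 19S assembly chaperone Psmd5. The name rule also took Psmc3ip, which encodes a meiotic recombination factor and not a proteasome subunit, so it is kept apart. Psmb10, Psmd9, Psmd10, Psma8 and Psmb11 had no entry under those names and were not analysed here as members. Without the immunoproteasome subunits and Psmc3ip, 32 members remain, called the constitutive members.

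Oligodendrocytes, the glia that wrap axons of the brain and spinal cord in myelin, were grown as primary cultures from rats at postnatal day 1. Cells given water-soluble cholesterol at 0.01 mM for 12 h gave 3 libraries, and cells given phosphate-buffered saline (PBS) for the same time gave 3. Such cholesterol is usually carried in a cyclodextrin, and a group given the carrier alone was not analysed here. The labels give no strain, sex or genotype and do not state whether replicate libraries stem from different cultures or animals, so p-values reflect only the spread among these libraries, which may be technical.

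The 26S proteasome degrades proteins tagged with ubiquitin. Its 20S core is a barrel of stacked rings: outer alpha rings gate the pore, and inner beta rings hold the proteolytic sites, which are caspase-like in Psmb6, trypsin-like in Psmb7 and chymotrypsin-like in Psmb5. The 19S particle caps the barrel, binds ubiquitin chains, removes them and uses a ring of ATPases to unfold the substrate and feed it in. In immune cells, or after interferon-gamma, Psmb9, Psmb10 and Psmb8 take the places of Psmb6, Psmb7 and Psmb5 and change which peptides are produced for MHC class I. In cells short of proteasome activity, the transcription factor Nfe2l1 is released from the endoplasmic reticulum and raises proteasome subunit genes together.

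Libraries held 63769532 to 70878378 counts, and the members' own counts ran from 206 to 25817 per gene and library. Sampling noise did not account for the spread of replicates (chi-square over its degrees of freedom 14.0 to 20.5 among cholesterol libraries and 8.19 to 9.48 among PBS libraries). Markers of the labelled cell type were abundant, and markers of other brain cells were also present. The summed level of 11 oligodendrocyte markers was 7827 to 8904 FPKM (fragments per kilobase and sequencing depth) after cholesterol and 5154 to 5261 FPKM with PBS, and 7 of the 11 were higher and 1 lower. For 10 astrocyte markers the sums were 805 to 867 and 568 to 575 FPKM, with 7 higher and 2 lower, and for 12 microglial markers 140 to 193 and 218 to 233 FPKM, with 0 higher and 9 lower. Another 6 precursor markers summed to 455 to 537 and 618 to 634 FPKM, with 1 higher and 4 lower. Sums of 8 neuronal markers (225 to 238 and 221 to 235 FPKM, 0 higher and 1 lower) and 6 fibroblast and vessel markers (17.3 to 20.5 and 17.3 to 22.4 FPKM, 2 higher and 2 lower) overlapped. No listed marker was at 0 in all libraries. In such bulk samples, fewer cells of a type and less RNA per cell cannot be told apart. What part these shifts had in the proteasome values was not tested.

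Many proteasome transcripts were modestly higher after cholesterol. Calls higher were made for 13 of the 14 constitutive 20S subunits and 8 of the 17 subunits of the 19S particle taken by name. Neither immunoproteasome subunit was called higher. Psmb8, Psmb9 and Psmd1 had estimates below 0, with no call. Of the 35 members, 22 were higher, 0 lower and 13 not called by edgeR's quasi-likelihood test at an adjusted p under 0.05, where 20.5% of all tested genes were called higher and 19.7% lower. Psmb8 was lower at an unadjusted p under 0.05, and the DESeq2 Wald test also called 0 members lower. All 3 cholesterol libraries lay above all 3 PBS libraries for 28 members, against 26.6% of tested genes, and for no member did they all lie below. Of all 35, 32 had a log2 fold change above 0, as did 50.7% of tested genes, and the groups of 28 did not overlap in either direction, against 52.3%. Calls in either direction made up 40.3% of tested genes. The median log2 fold change was 0.15 over the 35 members and 0.0053 over all genes, with a range of -0.39 to 0.66. The 32 constitutive members averaged 27.1 FPKM or more, while Psmb8, Psmb9 and Psmc3ip averaged 3.91, 2.09 and 4.21 FPKM. Of the 8535 genes averaging 5 FPKM or more, 24.7% were called higher and 27.6% lower. Only Psmc3ip among the 22 exceeded a log2 fold change of 0.5.

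The count of 22 depended on which libraries were compared. It was 13 without PBS replicate 1 or without PBS replicate 2, 15 without PBS replicate 3, and, leaving out cholesterol replicate 1, 2 or 3 in turn, 16, 19 or 24. Over all tested genes, 3325 were called higher with all libraries and 2629, 2707 and 2670 without PBS replicates 1, 2 and 3. Without cholesterol replicates 1, 2 and 3 the number over all genes was 2665, 3039 and 3205. With a library left out, the median log2 fold change of the constitutive members ran from 0.11 to 0.17. Scaling each library to its median left 10 members higher and made Psmb8 and Psmd1 lower, and it gave 2578 higher and 4011 lower genes in all, 39.1% of calls higher against 51.0% with TMM (trimmed mean) scaling. A correction for gene length, chosen after seeing the data, left 12, with 3055 genes higher in all. Psma5, Psmb1, Psmb3, Psmb5, Psmb6, Psmb7 and Psmc3ip were called higher under every alternative run that tested them, and no called member changed sign under any.

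**Figure D1:**
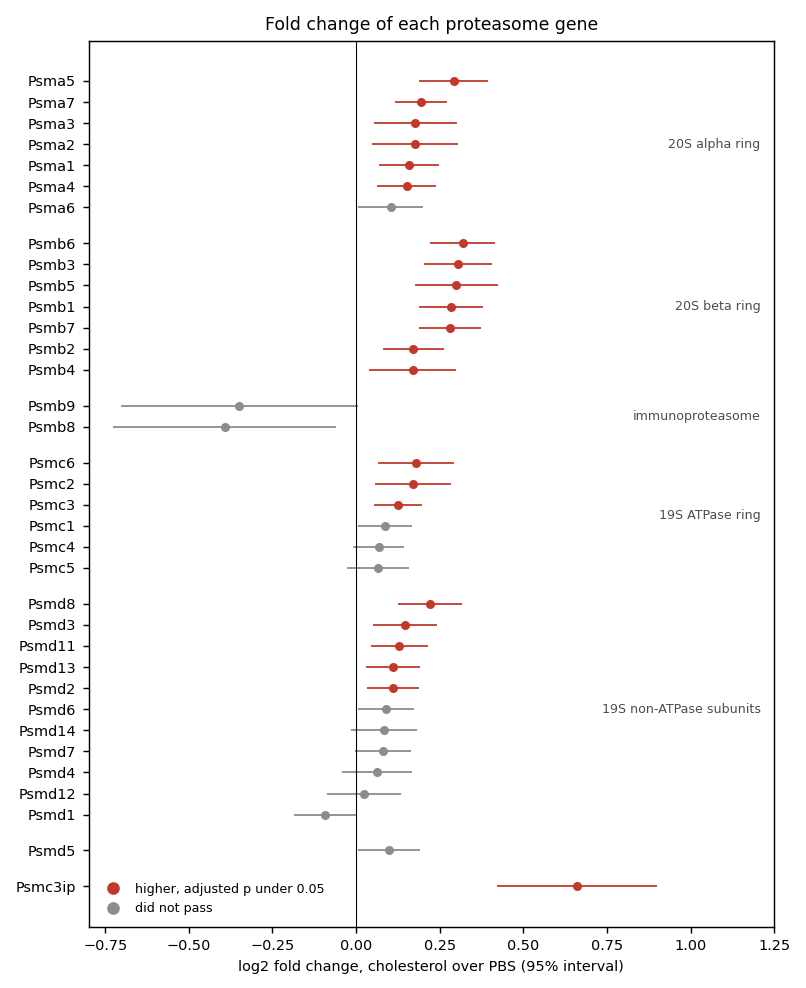
Log2 fold change of cholesterol over PBS for each of the 35 members, grouped by place in the particle, with 95% confidence intervals from the edgeR fit. All 7 constitutive beta subunits lie between 0.17 and 0.32, and Psmb8 and Psmb9 lie at -0.39 and -0.35.

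Transcripts of the proteolytic subunits Psmb5, Psmb6 and Psmb7 rose by close to the same amount, while their immunoproteasome counterparts were low in every library and had estimates below 0. Psmb6, which carries the caspase-like site, had 99.1, 99.6 and 90.7 CPM (counts scaled to a common library size, with TMM factors) in cholesterol libraries, against 77.4, 76.5 and 78.2 CPM in PBS libraries. The groups did not overlap, and the log2 fold change was 0.32 ± 0.044 (SE, adjusted p = 0.000279), or 24.7% more CPM. A Psmb6-like entry outside the name rule, at 1.61 to 3.23 CPM, could share reads with it. Psmb5, the chymotrypsin-like subunit, had 107, 108 and 95.8 CPM after cholesterol and 81.1, 82.4 and 89.3 CPM with PBS. Its lowest cholesterol library, replicate 3, was still above its highest PBS library, replicate 3, and the log2 fold change was 0.30 ± 0.056 (adjusted p = 0.00172). Psmb7, the trypsin-like subunit, had 145, 144 and 134 CPM in cholesterol libraries and 116, 113 and 119 CPM in PBS libraries, a log2 fold change of 0.28 ± 0.042 (adjusted p = 0.000429). For all 3 genes the third cholesterol library was the lowest of its group.

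Psmb8, which replaces Psmb5 in the immunoproteasome, had 5.02, 6.19 and 4.34 CPM after cholesterol and 7.54, 5.99 and 6.90 CPM with PBS. Cholesterol replicate 2 lay above PBS replicate 2, so the groups overlapped, and the log2 fold change of -0.39 ± 0.150 (95% confidence interval -0.73 to -0.06) missed the threshold after adjustment (adjusted p = 0.0597). Psmb8 passed as lower without cholesterol replicate 2 (log2 fold change -0.54, adjusted p = 0.0142), with the length correction (adjusted p = 0.0192), after median scaling (adjusted p = 0.0336) and when libraries were quantile-normalized (adjusted p = 0.0258). Its adjusted p ranged from 0.0142 to 0.192 over the alternatives. Psmb9, which replaces Psmb6, had 4.74, 3.77 and 3.20 CPM after cholesterol and 4.56, 5.08 and 5.27 CPM with PBS. Cholesterol replicate 1 lay inside the PBS range, and the log2 fold change of -0.35 ± 0.160 (95% confidence interval -0.70 to 0.01) did not pass (adjusted p = 0.108). It passed as lower without cholesterol replicate 1 (log2 fold change -0.51, adjusted p = 0.0281) and with quantile normalization (adjusted p = 0.0337). Psmb9 also overlaps the entry of its neighbour Tap1 on the other strand, and whether counting used the strand is not stated.

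Compared per length, the immunoproteasome pair stood far below the constitutive subunits. Psmb8 was at 3.39 ± 0.605 FPKM after cholesterol and 4.42 ± 0.499 FPKM with PBS, and its counterpart Psmb5 at 105 ± 6.57 and 84.8 ± 4.44 FPKM (SD, n = 3 per group). Of the summed FPKM of Psmb8 and Psmb5, Psmb8 made up 2.94%, 3.55% and 2.85% in cholesterol libraries and 5.66%, 4.49% and 4.76% in PBS libraries. Psmb9 was at 1.84 ± 0.360 FPKM after cholesterol and 2.33 ± 0.172 FPKM with PBS, and made up 1.93%, 1.54% and 1.43% of its sum with Psmb6 after cholesterol and 2.38%, 2.67% and 2.71% with PBS. Both shares were lower in every cholesterol library than in any PBS library, with the constitutive gene higher and the immunoproteasome gene not called. These shares were not tested. In the same libraries the 12 microglial markers, which mark macrophage-like cells that can express the immunoproteasome, summed to 152, 193 and 140.3 FPKM after cholesterol and 218, 233 and 228 FPKM with PBS. Among cholesterol libraries replicate 2 was the highest for this sum and for Psmb8, and replicate 1 for Psmb9. Among PBS libraries replicate 2 had the highest sum and the lowest Psmb8. The part of microglial RNA in the Psmb8 and Psmb9 values was not tested.

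**Figure D2:**
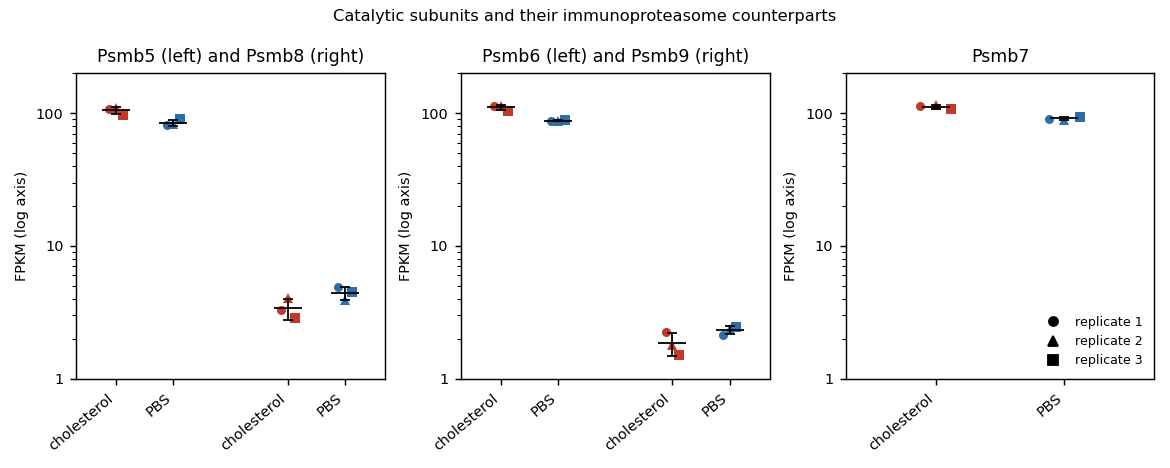
FPKM, on a log axis, of each constitutive proteolytic subunit and its immunoproteasome counterpart in each library, cholesterol left of PBS for each gene, with points for libraries and lines for the mean and SD of each group. The groups of Psmb5, Psmb6 and Psmb7 do not overlap, and those of Psmb8 and Psmb9 do.

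The promoters of these 5 genes are shown because the 3 constitutive genes rose and the 2 immunoproteasome genes, with estimates below 0, did not pass. They are RefSeq sequences of build GRCr8, each running from 250 bases before to 50 bases after the annotated start, 5′ to 3′ on the strand of the gene. The windows are chr15:32047330-32047629 on the minus strand for Psmb5, chr10:55737638-55737937 on the plus strand for Psmb6, chr3:42827421-42827720 on the minus strand for Psmb7, chr20:4656982-4657281 on the minus strand for Psmb8 and chr20:4668750-4669049 on the plus strand for Psmb9. Capitals mark matches on either strand to the 4 motifs searched: TGACNNNGC (antioxidant response element core, read by Nfe2l1 and Nfe2l2), CCAAT (read by NF-Y), GAAA followed after any 2 bases by GAAA (interferon-stimulated response element) and GCGC followed after any 2 bases by GCGC (read by nuclear respiratory factor 1).
Psmb5: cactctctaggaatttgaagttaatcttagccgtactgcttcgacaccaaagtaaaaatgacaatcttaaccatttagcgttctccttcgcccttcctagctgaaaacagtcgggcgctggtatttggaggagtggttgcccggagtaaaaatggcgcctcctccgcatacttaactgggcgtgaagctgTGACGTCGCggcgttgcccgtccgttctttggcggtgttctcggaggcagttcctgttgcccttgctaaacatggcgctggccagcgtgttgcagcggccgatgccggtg
Psmb6: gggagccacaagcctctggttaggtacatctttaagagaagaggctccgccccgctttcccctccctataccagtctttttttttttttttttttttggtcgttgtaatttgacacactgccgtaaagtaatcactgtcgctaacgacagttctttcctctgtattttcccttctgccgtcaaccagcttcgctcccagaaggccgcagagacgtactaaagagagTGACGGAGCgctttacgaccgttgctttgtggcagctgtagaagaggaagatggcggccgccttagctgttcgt
Psmb7: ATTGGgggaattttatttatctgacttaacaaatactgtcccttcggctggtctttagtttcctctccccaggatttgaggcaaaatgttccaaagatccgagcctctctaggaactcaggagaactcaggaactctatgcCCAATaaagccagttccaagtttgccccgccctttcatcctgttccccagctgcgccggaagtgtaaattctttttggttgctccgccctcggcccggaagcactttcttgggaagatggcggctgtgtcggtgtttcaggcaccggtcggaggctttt
Psmb8: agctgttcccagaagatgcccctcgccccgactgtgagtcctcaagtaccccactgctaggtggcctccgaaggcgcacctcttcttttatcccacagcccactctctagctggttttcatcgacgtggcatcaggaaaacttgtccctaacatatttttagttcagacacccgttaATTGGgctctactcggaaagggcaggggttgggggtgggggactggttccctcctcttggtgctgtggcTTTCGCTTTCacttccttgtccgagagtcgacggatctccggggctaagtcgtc
Psmb9: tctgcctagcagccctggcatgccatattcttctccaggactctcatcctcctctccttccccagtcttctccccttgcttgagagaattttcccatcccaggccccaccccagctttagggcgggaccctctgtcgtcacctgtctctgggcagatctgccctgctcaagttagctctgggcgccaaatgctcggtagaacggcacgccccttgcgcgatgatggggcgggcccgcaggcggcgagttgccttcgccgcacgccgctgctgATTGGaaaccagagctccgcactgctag

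Psmb5 held the antioxidant element from base 191 of its window and Psmb6 from base 227, counted from the 5′ end, and neither held another of the motifs. Psmb7 held CCAAT matches only, from bases 1 and 142, and Psmb9 a single CCAAT match from base 273. Psmb8 held a CCAAT match from base 178 and the interferon element from base 247, which spans the annotated start. Of the 35 members, 31 had a promoter in the RefSeq table; Psma7, Psmd12, Psmd14 and Psmd6 had none matched. The antioxidant element was in 6 of these 31 (Psma3, Psmb2, Psmb5, Psmb6, Psmd1 and Psmd3) and in 12.2% of all 27457 promoters of the same length. CCAAT was in 17 of 31 and in 37.7% of all, the interferon element in 4 of 31 (Psma4, Psmb3, Psmb8 and Psmd7) and in 3.77% of all, and the paired GCGC motif in 5 of 31 (Psma2, Psma3, Psma4, Psma5 and Psmc5) and in 6.15% of all. A match is a description of the letters. The antioxidant element was in 5 of 21 members called higher, Psmc3ip among the 21, and in 1 of 10 not called, which was Psmd1. The paired GCGC motif was in 4 of the same 21 and 1 of the 10. CCAAT was in 12 of the 21 and 5 of the 10, and the interferon element in 2 of the 21 and 2 of the 10. What part any motif had in these values was not tested.

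The whole constitutive beta ring rose. All 7 subunits were called higher and had groups that did not overlap, and their log2 fold changes ran from 0.17 to 0.32 with a median of 0.28. Psmb3, a structural beta subunit, had 101, 111 and 102 CPM in cholesterol libraries, against 85.6, 86.5 and 82.6 CPM in PBS libraries (log2 fold change 0.30 ± 0.046, adjusted p = 0.000451). Psmb1, another subunit without a proteolytic site, had 182, 196 and 181 CPM after cholesterol and 147, 156 and 156 CPM with PBS (0.28 ± 0.043, adjusted p = 0.000477). In both genes cholesterol replicate 2 was the highest library. Psmb2, also structural, had 92.8, 99.6 and 94.5 CPM in cholesterol libraries and 87.5, 84.2 and 83.2 CPM in PBS libraries (0.17 ± 0.041, adjusted p = 0.0077). It lost the call with the length correction (adjusted p = 0.332). Psmb4, the most abundant constitutive member per length, had 169.9, 193 and 162 CPM after cholesterol and 154, 152 and 160.3 CPM with PBS (0.17 ± 0.059, adjusted p = 0.0418). This was the least certain call of the ring: the third cholesterol library lay just above the third PBS library, and the call was lost in 11 of 17 alternatives, among them each library left out except cholesterol replicate 3, median scaling, no filter on low counts, log2(FPKM + 1) and the length corrections.

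In the alpha ring 6 of 7 subunits rose. All 7 had groups that did not overlap, and the median log2 fold change was 0.18, against 0.28 in the beta ring (0.13 and 0.18 with the length correction), a difference that was not tested. Psma5 had 79.4, 84.5 and 81.1 CPM in cholesterol libraries, against 63.2, 69.8 and 67.2 CPM in PBS libraries, and its log2 fold change of 0.29 ± 0.047 (adjusted p = 0.000717) was the highest of the ring. Psma7 had 175, 177 and 168 CPM after cholesterol and 153, 152 and 150.2 CPM with PBS (0.20 ± 0.035, adjusted p = 0.00139), and it lost its call under the length corrections alone. Psma1 had 137, 149 and 141 CPM in cholesterol libraries and 129.97, 125 and 128 CPM in PBS libraries (0.16 ± 0.040, adjusted p = 0.0102). The gap between its lowest cholesterol and highest PBS library was small beside that of Psma5. Psma4 had 132, 141 and 131 CPM after cholesterol and 121, 123.4 and 119.7 CPM with PBS (0.15 ± 0.040, adjusted p = 0.0115). Psma2 (0.18, adjusted p = 0.0341) and Psma3 (0.18, adjusted p = 0.0284) were also higher, and Psma6, at 0.10, was not called (adjusted p = 0.0887). Leaving out 1 PBS library ended the call of Psma1 (PBS replicate 2, adjusted p = 0.0535), Psma4 (PBS replicate 3, adjusted p = 0.0545), Psma2 (each of the 3, adjusted p = 0.0825 to 0.117) and Psma3 (PBS replicate 1 or 2, adjusted p = 0.0936 and 0.109). The count for the ring was 3 without PBS replicate 2, 2 with median scaling and 3 with the length correction.

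**Figure D3:**
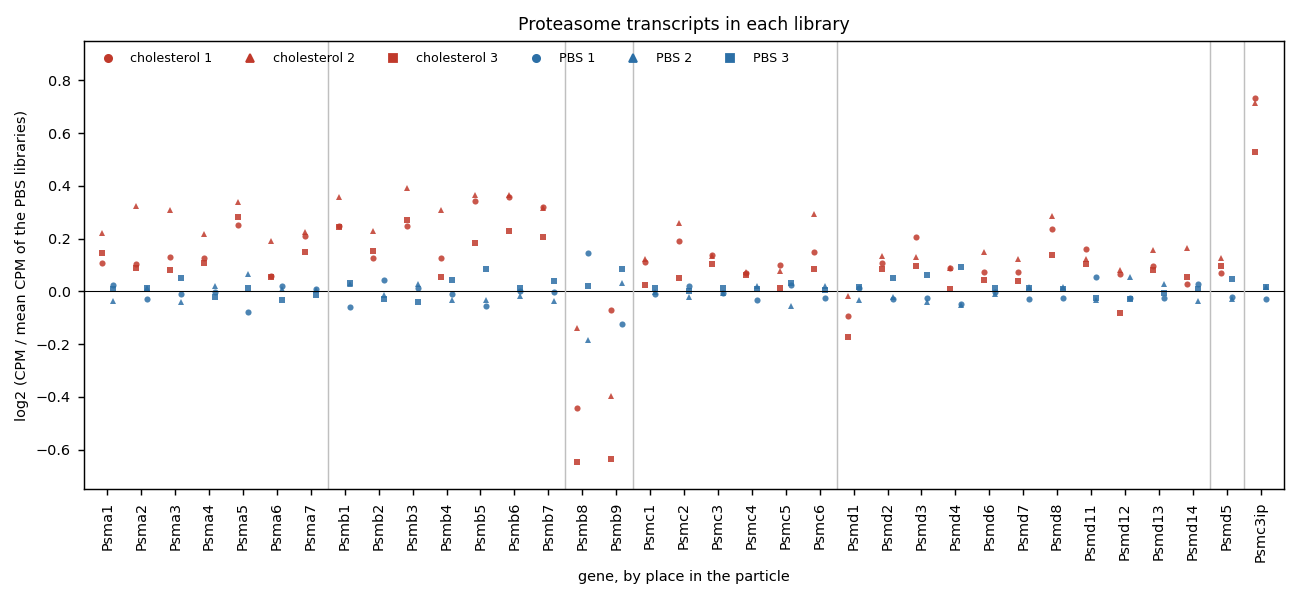
Level of every member in each library as log2 of its CPM over its mean CPM with PBS, with genes along the horizontal axis by place in the particle and cholesterol points left of PBS points. Cholesterol replicate 2, drawn as triangles, is the highest cholesterol library for 26 of the 32 constitutive members, and all cholesterol points of Psmb8, Psmb9 and Psmd1 lie below 0.

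Cholesterol replicate 2 stood out among the cholesterol libraries for these genes. The median deviation of the 32 constitutive members from their own mean log2 CPM was 0.06, 0.14 and 0.03 in cholesterol replicates 1, 2 and 3, against -0.08, -0.08 and -0.06 in PBS replicates 1, 2 and 3. Replicate 2 was the highest cholesterol library for 26 of the 32 and replicate 3 for 0, while over all tested genes each was the highest for 34.9% and 33.0%. Without replicate 2 the median log2 fold change of the 32 was 0.11, against 0.15 with it, and 19 members were still called higher.

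In the 19S regulatory particle about as many subunits passed as did not. Of its 17 subunits taken by name, 8 were higher and 9 not called, and the median log2 fold change was 0.09, against 0.19 in the 20S core. The median of the 19S subunits was 0.031 with the length correction, 0.034 with median scaling and 0.15 with quantile normalization. The difference between the particles was not tested. Of the 6 ATPases, which unfold the substrate, 3 were higher. Psmc6 had 131, 145 and 125 CPM in cholesterol libraries, against 116, 119.8 and 118 CPM in PBS libraries (log2 fold change 0.18 ± 0.051, adjusted p = 0.0176). Psmc3 had 198, 198 and 194 CPM after cholesterol and 179, 179 and 182 CPM with PBS (0.13 ± 0.032, adjusted p = 0.0108). Psmc3 varied little within a group, while Psmc6 varied more among cholesterol libraries (SD 9.97 CPM, against 2.57 CPM for Psmc3). The groups of both genes did not overlap. Psmc2 was also higher (0.17, adjusted p = 0.0233), and Psmc1, Psmc4 and Psmc5, at 0.09, 0.07 and 0.06, were not called. Psmc6 lost its call without PBS replicate 1 (adjusted p = 0.0742) or PBS replicate 3 (adjusted p = 0.0560), Psmc3 without PBS replicate 1 (adjusted p = 0.0507), and Psmc2 without any library except cholesterol replicate 3 (adjusted p = 0.0576 to 0.0850).

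Among the 11 non-ATPase subunits, 5 were higher and 6 not called. Psmd8, a subunit of the lid, had 147, 151 and 137 CPM in cholesterol libraries, against 122, 126 and 125 CPM in PBS libraries (log2 fold change 0.22 ± 0.043, adjusted p = 0.00219). Among the 19S subunits taken by name, this was the largest change. Sem1, a 19S subunit outside the name rule, had a larger one (0.27) and is given with the companion lists. Psmd3, another lid subunit, had 193, 183 and 179 CPM after cholesterol and 165, 163 and 175 CPM with PBS (0.15 ± 0.042, adjusted p = 0.0193). The lid subunits Psmd11 (0.13) and Psmd13 (0.11) and the base scaffold Psmd2 (0.11) were higher, and the lid subunits Psmd12 (0.02), Psmd6 (0.09), Psmd7 (0.08) and Psmd14 (0.08), the last of which is the deubiquitinase, were not called. The ubiquitin receptor Psmd4 was not called either (0.06, adjusted p = 0.330). Psmd1, the other large scaffold of the base, ran the other way. It had 228, 239.9 and 216 CPM after cholesterol and 245, 238 and 246 CPM with PBS, and its log2 fold change of -0.09 ± 0.042 (95% confidence interval -0.19 to 0.00) was not called (adjusted p = 0.105). Psmd1 passed as lower with median scaling (adjusted p = 0.0168) and without cholesterol replicate 2 (adjusted p = 0.0168). Psmd8 kept its call with each library left out. Psmd2 and Psmd3 lost theirs without cholesterol replicate 1, PBS replicate 1 or PBS replicate 2, Psmd11 without cholesterol replicate 1, PBS replicate 2 or PBS replicate 3, and Psmd13 without any library except cholesterol replicate 3 (adjusted p = 0.0554 to 0.128 over these 4 genes). The count of 8 for the whole 19S particle was 2 without PBS replicate 1, 3 without PBS replicate 2, 4 without PBS replicate 3, 3 without cholesterol replicate 1, 1 with median scaling and 3 with the length correction.

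Psmd5, a chaperone that holds part of the 19S base before assembly, had 68.3, 71.04 and 69.6 CPM after cholesterol and 64.1, 63.8 and 67.3 CPM with PBS. Its groups did not overlap, and it was not called (0.10, adjusted p = 0.0850). Psmc3ip, kept apart as no proteasome gene, had 8.34, 8.25 and 7.25 CPM in cholesterol libraries, against 4.92, 5.08 and 5.08 CPM in PBS libraries. That is 58.2% more, with a log2 fold change of 0.66 ± 0.108 (adjusted p = 0.000764) and wide separation of the groups. Its entry overlaps that of Mlx on the other strand. In all, 11 of the 35 members overlap another annotated entry, so their counts are less certain. Besides Psmc3ip they are Psmb2, Psmb3, Psmb7, Psmb9, Psmc1, Psmc3, Psmc5, Psmd1, Psmd6 and Psmd13. Only Psmc5 overlaps entries on its own strand, Tcam1 and a small nucleolar RNA.

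Per length, the mean level of constitutive members ran from 27.1 FPKM for Psmc6 to 134 FPKM for Psmb4. The summed level of the beta ring was 699, 742 and 674 FPKM in cholesterol libraries, against 583, 582 and 599 FPKM in PBS libraries. That of the alpha ring was 509, 552 and 509 FPKM after cholesterol and 460, 463 and 460 FPKM with PBS. The ATPases summed to 354, 363 and 342 FPKM after cholesterol and 322, 322 and 326 FPKM with PBS, and the non-ATPase subunits to 750, 773 and 730 FPKM after cholesterol and 690, 693 and 711 FPKM with PBS. No cholesterol library overlapped a PBS library in any of these 4 sums. The 2 immunoproteasome subunits together gave 5.49, 5.84 and 4.38 FPKM after cholesterol and 7.03, 6.28 and 6.95 FPKM with PBS. All 35 members took 0.450% to 0.483% of the counts in cholesterol libraries and 0.415% to 0.422% in PBS libraries.

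Fold changes followed gene length over the whole table, and most constitutive members are short. Gene length here is relative: the ratio of a gene's summed counts to its summed FPKM, and not an annotated length. In the 3 shortest of 10 equal classes of length the median log2 fold change of all tested genes was 0.09, 0.12 and 0.08, and in the longest class it was -0.13. Of the 32 constitutive members, 18 fall in those 3 shortest classes and 0 in the 2 longest. With the trend over length taken out, the median log2 fold change of the constitutive members was 0.070, against 0.15 before, and 12 of the 35 members were higher and 1, Psmb8, lower. Of the 12, 5 were in the beta ring, 3 in the alpha ring and 3 in the 19S particle, and the other was Psmc3ip. Psma6, Psmc4, Psmd4, Psmd6, Psmd7, Psmd12 and Psmd14, none of them called in either case, then had estimates below 0.

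Genes that work around the proteasome did not move with it as a block, and the counts in these lists stand against 20.5% of all tested genes called higher and 19.7% lower. Of the 4 activators and inhibitors with an entry, 0 were higher, 1 lower and 3 not called, with a median log2 fold change of -0.06. Psme4, an activator that caps the core in place of the 19S particle, fell to 149, 149 and 165 CPM in cholesterol libraries, against 177, 180.0 and 174 CPM in PBS libraries (log2 fold change -0.20, adjusted p = 0.00492). The interferon-inducible activator subunits, named after their values were seen, parted in sign without a call: Psme1 was at -0.25 (adjusted p = 0.0511) and Psme2 at 0.09. Psme1 passed as lower in 9 of 17 alternatives, and its adjusted p ranged from 0.00543 to 0.133 over them. Psme2 passed in 0 of 17. Of 5 assembly chaperones 2 were higher and 0 lower, with a median of 0.18. They were Psmg3, which helps build the alpha ring (0.38, adjusted p = 0.00275), and Pomp, which helps the beta ring mature (0.18, adjusted p = 0.0234). Pomp lost its call when any of the 3 PBS libraries was left out (adjusted p = 0.0588 to 0.0796) and with median scaling, and Psmg3 kept its call under every alternative run.

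Ubiquitin receptors, deubiquitinases and other proteins that bind the proteasome went both ways, with 3 of 13 genes higher, 6 lower and a median of -0.10. This list also holds Ube3c, Ecpas, Txnl1, Zfand5 and Sem1, which are neither receptors nor deubiquitinases. The docking shuttle Rad23b was lower (-0.20, adjusted p = 0.000384). It had 353, 353 and 352 CPM in cholesterol libraries, against 409, 406 and 404 CPM in PBS libraries. Uchl5, a deubiquitinase of the 19S particle, was higher (0.43, adjusted p = 0.00445), as was Sem1, the smallest 19S subunit, which does not carry a Psmd name (0.27, adjusted p = 0.00698). Rad23b and Uchl5 kept their calls under every alternative run, and Sem1 lost its call under the length corrections.

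Of 10 genes that control proteasome gene expression or nuclear import, 2 were higher, 3 lower and 5 not called, with a median of -0.14, which is close to the shares over all tested genes. Ngly1, the enzyme that strips sugars from Nfe2l1, was higher (0.30, adjusted p = 0.00141), as was Keap1, which marks Nfe2l2 for degradation (0.18, adjusted p = 0.00652). Ddi2, the protease that cuts Nfe2l1, was lower (-0.32, adjusted p = 0.00283), as was Mafg, a DNA-binding partner of both factors (-0.31, adjusted p = 0.000106). Nfe2l1 itself, named after its values were seen, was lower, with 117, 111 and 112 CPM in cholesterol libraries, against 126, 123.5 and 122 CPM in PBS libraries (-0.12, adjusted p = 0.0222), a call lost without PBS replicate 1 or 2 (adjusted p = 0.0943 and 0.0685), with quantile normalization and with the length corrections. Its protein was not measured here.

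Of 7 genes of ubiquitin activation and unfolding, 0 were higher and 2 lower, with a median of -0.08. These were Vcp, the segregase that extracts ubiquitinated proteins (-0.20, adjusted p = 0.0005), and Uba1, the main ubiquitin-activating enzyme (-0.13, adjusted p = 0.0085). Of 11 genes of antigen processing and its induction, 1 was higher, 3 lower and 7 not called, with a median of -0.14. The 4 calls of 11 are no larger a share than the 40.3% called in either direction over all tested genes. Ifngr1, a chain of the interferon-gamma receptor, fell to 64.05, 74.8 and 69.7 CPM in cholesterol libraries, against 102, 104 and 99.6 CPM in PBS libraries (-0.55, adjusted p = 3.1e-05). The kinases Jak1 and Jak2 of the same receptor were lower (-0.14 and -0.17), and Irf1, a transcription factor that induces immunoproteasome genes, was higher (0.25, adjusted p = 0.0384). Ifngr1 kept its call under every alternative run. Jak1 lost its call without PBS replicate 1 (adjusted p = 0.0509), after correction for length (adjusted p = 0.204) and under quantile normalization (adjusted p = 0.0994). Jak2 lost its call without PBS replicate 2 (adjusted p = 0.0556) and after correction for length (adjusted p = 0.0756). Irf1 lost its call in 11 of 16 alternatives, among them each library left out except cholesterol replicate 3 (adjusted p = 0.0629 to 0.119), the DESeq2 Wald test (adjusted p = 0.0541) and median scaling (adjusted p = 0.0918). Tap1, which sits beside Psmb9 and was named after its values were seen, was not called (-0.16, adjusted p = 0.201).

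**Figure D4:**
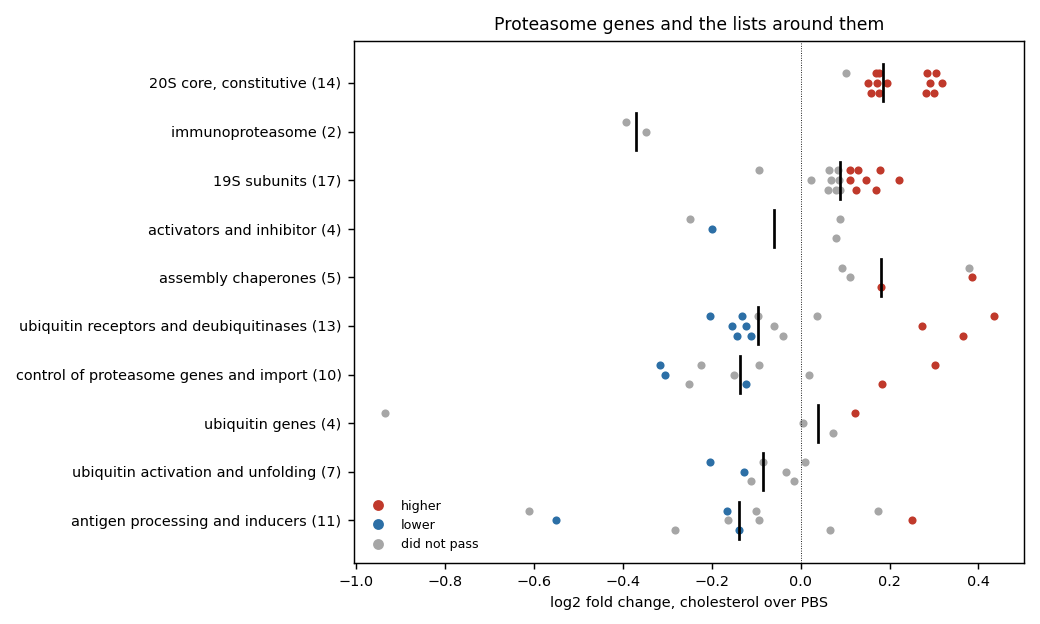
Log2 fold change of cholesterol over PBS for the proteasome groups and the 7 companion lists, 1 point per gene coloured by its call, with a bar at the median of each list. The medians run from -0.14 to 0.18 over the companion lists, and stand at 0.19 for the 20S core and 0.09 for the 19S subunits.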

How the data were processed

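Per the labels' protocols, libraries of poly(A) RNA were stranded, by dUTP in the second strand, and read in pairs. Among the tools in the submitters' processing notes are StringTie 2.1.6, HISAT2 2.2.1 and cutadapt 1.9, besides edgeR and DESeq2, with rn6 as the build and no role for any. Which annotation release was used, and whether counting used strand, is not given in the sources used here. In 1 deposited table the authors gave counts and FPKM for each gene, per the file headers.

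The deposited counts were tested over all genes with edgeR 4.0.16 in R 4.3.3 (limma 3.58.1): filterByExpr, TMM scaling, the quasi-likelihood test, two-sided, and Benjamini-Hochberg adjustment over 16182 genes, with a call at an adjusted p under 0.05. CPM were computed from the counts, and levels between genes were compared only by the deposited FPKM. Each SE was derived from the F statistic of the fit. The method was tested on simulated data, where 98 of 15955 tested genes were changed 2-fold and 98 were changed 1.3-fold. It recovered 72.4% of the 2-fold and 42.9% of the 1.3-fold changes, 0 with the wrong sign, and made 18 false calls. The changed genes were drawn at random from all levels of expression, and they were a far smaller share than the 40.3% called in these data. The recovered shares therefore do not give the chance of a call for the proteasome genes. Small changes can go without a call. Depth was 63769532 to 70878378 counts per library, and precision is limited by the 3 libraries per group.

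The members and lists were chosen with earlier results of these data known. Values in every library are given for Psmb5 to Psmb9 (Psmb10 has no entry), for the 12 other members with the smallest p among those called, and for the member of each group with the largest fold change; other members given so were chosen after their values were seen. Of each companion list, up to 4 called members with the smallest p are named, except for a few that are not reported here. Paaf1, Psme3 and the vessel marker Cldn5 had no entry. Alternatives were DESeq2 1.42.0 size factors and Wald test, median scaling, voom with quantile normalization, no filter, a minimum of 5 FPKM, limma-trend on log2(FPKM + 1) and log2(FPKM + 0.1), a replicate block, and each library left out. Corrections for gene length, with and without the block, were chosen after seeing the data and used a relative length from the ratio of counts to FPKM.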

Additional observations from a re-analysis of the deposited data

How the results depend on the processing

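The direction of the 22 calls held under each of the 17 alternatives that tested them, and their number did not; Psmc3ip, Psmb8 and Psmb9 were not tested with the minimum of 5 FPKM. The count of members higher was 22 with the DESeq2 size factors and with its Wald test, 20 without a filter, 26 with a minimum of 5 FPKM, 24 and 25 on log2(FPKM + 1) and log2(FPKM + 0.1), and 29 with quantile normalization. It was 10 with median scaling, 12 with the length correction and 11 with the length correction and the replicate block together, and 13 to 24 when a library was left out. The count of members lower, 0 in the first place, was 2 with median scaling, 2 with quantile normalization, 1 with the length correction, 1 with the length correction and block, and 0 to 2 when a library was left out. The median log2 fold change of the 32 constitutive members, 0.15, became 0.094 with median scaling, 0.21 with quantile normalization, 0.070 with the length correction, 0.069 with the length correction and block, and 0.11 to 0.17 when a library was left out. A fit with a library left out has fewer samples, and the length corrections take out a trend over length in the whole table. The cause of these shifts, and of those with other settings, was not tested. Of the 22 called members, 7 kept the call throughout and 15 lost it at least once; of the 13 not called, 10 passed at least once and Psmc5, Psmd12 and Psmd4 never did.

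Samples with the same replicate number did not deviate together (correlations of 0.001, -0.037 and -0.026 for replicates 1, 2 and 3). No cholesterol library correlated best with the PBS library of its own number. These values showed no pairing by number, and with 3 libraries per group they cannot exclude a shared culture or preparation. With the replicate block 20 members were higher and 0 lower (Psmb4 and Psmd2 lost the call, adjusted p = 0.0522 and 0.0518), and the median of the constitutive members was 0.15. Genes at the level of Psmb8 and Psmb9, with the lowest counts of the members, are those for which depth limits the comparison most.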

Other observations

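Entries outside the name rule that resemble members were also read. The entry described as proteasome 26S non-ATPase subunit 10, an assembly chaperone that also goes by the name gankyrin, had 33.2, 36.6 and 31.5 CPM in cholesterol libraries, against 23.9, 24.6 and 21.4 CPM in PBS libraries. It was higher, with a log2 fold change of 0.54 ± 0.077 (edgeR's quasi-likelihood test, adjusted p = 0.000342), a larger change than that of any of the 32 constitutive members. A Psmb6-like entry had 2.12, 3.23 and 2.68 CPM in cholesterol libraries and 1.93, 1.61 and 2.203 CPM in PBS libraries and was not called (adjusted p = 0.0902). A Psmb3-like entry had 0 to 3 counts per library.

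Rps27a, which encodes ubiquitin fused to a ribosomal protein, separated the cholesterol libraries from each other. It had 66.4, 221 and 65.4 CPM in cholesterol libraries, against 221, 204 and 249 CPM in PBS libraries, so cholesterol replicate 2 lay in the PBS range while the others lay far below it. It was not called (log2 fold change -0.94, adjusted p = 0.0749). Rps27a passed as lower in 5 of 17 alternatives: without cholesterol replicate 2 (log2 fold change -1.77, adjusted p = 3.85e-07), with quantile normalization (-1.12), with the length correction (-1.07), with the replicate block (-1.19) and with both of the last (-1.30). Its adjusted p ranged from 3.85e-07 to 0.231 over the alternatives. The same library was the highest of all 6 for 25 of the 32 constitutive proteasome members.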
